A study of Homo sapiens with 4 samples.

Results

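RNA-rich cells are described here: cells of the HCC1143 line in which more than 100000 unique molecular identifiers (UMIs, the tags by which each captured RNA molecule is counted once) were read. They were chosen by their total UMIs alone, and 487 of 3180 kept cells passed. HCC1143 is an established human cell line from a triple-negative breast carcinoma, a tumour type without the oestrogen, progesterone and HER2 receptors that guide other treatments. Cells of 4 groups were profiled one by one on the 10x Chromium platform, which captures poly(A) RNA in droplets, with 1 library per group. The groups were cells in 1 nM paclitaxel for 24 h, cells in DMSO, the solvent control, for 24 h, cells in 1 nM paclitaxel for 72 h, and cells in DMSO for 72 h. All had been left in 6-well plates for 24 h to attach before drug or solvent was added. With 1 library per group there is no replicate check: cells of a library are not replicates, no test across samples exists, and every interval covers counting error only. The question was whether such cells resemble G2/M cells, doublets or cells enlarged after a failed division, and whether this differed with paclitaxel.

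A growing cell gathers RNA as it passes from G1 through S phase into G2, so cells shortly before division tend to hold the most RNA. The genes of G2 and mitosis, such as the B-type cyclins and the mitotic kinases, are switched on late in the cycle, and their RNAs fade after division. Paclitaxel binds and stabilises microtubules and can delay cells in mitosis; a cell that leaves mitosis without dividing returns to an interphase state with all of its DNA and cytoplasm. A droplet that captures a pair of cells, a doublet, also carries much RNA.

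RNA-rich cells made up a larger share of both paclitaxel libraries. There were 168 RNA-rich cells among 776 kept cells (21.6%, exact binomial 95% interval 18.8 to 24.7%) after 24 h in paclitaxel, against 125 of 1101 (11.4%, 9.54 to 13.4%) after 24 h in DMSO. After 72 h there were 99 of 520 (19.0%, 15.8 to 22.7%) in paclitaxel, against 95 of 783 (12.1%, 9.93 to 14.6%) in DMSO. The intervals of paclitaxel and DMSO did not overlap at either time. The medians of all kept cells lay close together, at 59670 UMIs (paclitaxel) and 59378 UMIs (DMSO) at 24 h and at 57545 UMIs (paclitaxel) and 54864 UMIs (DMSO) at 72 h. Both ends differed more. Cells above 150000 UMIs numbered 41 in paclitaxel (5.28%, 3.82 to 7.1%) and 20 in DMSO (1.82%, 1.11 to 2.79%) at 24 h. At 72 h they numbered 18 in paclitaxel (3.46%, 2.06 to 5.42%) and 11 in DMSO (1.4%, 0.703 to 2.5%), with overlapping intervals. Cells under 40000 UMIs were also a larger share in paclitaxel, with 23.3% against 15.7% in DMSO at 24 h. At 72 h they were 29.4% in paclitaxel and 21.5% in DMSO. RNA-rich cells held 41.1% of all UMIs of the paclitaxel 24 h library and 21.9% of the DMSO 24 h library, and 37.9% (paclitaxel) and 23.8% (DMSO) at 72 h. The threshold cut a continuous range: the cells nearest to it had 100017 UMIs inside and 99674 outside in the paclitaxel 24 h library, 100780 and 99956 in the DMSO 24 h library, 100211 and 99811 in the paclitaxel 72 h library, and 100223 and 99349 in the DMSO 72 h library.

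**Figure D1:**
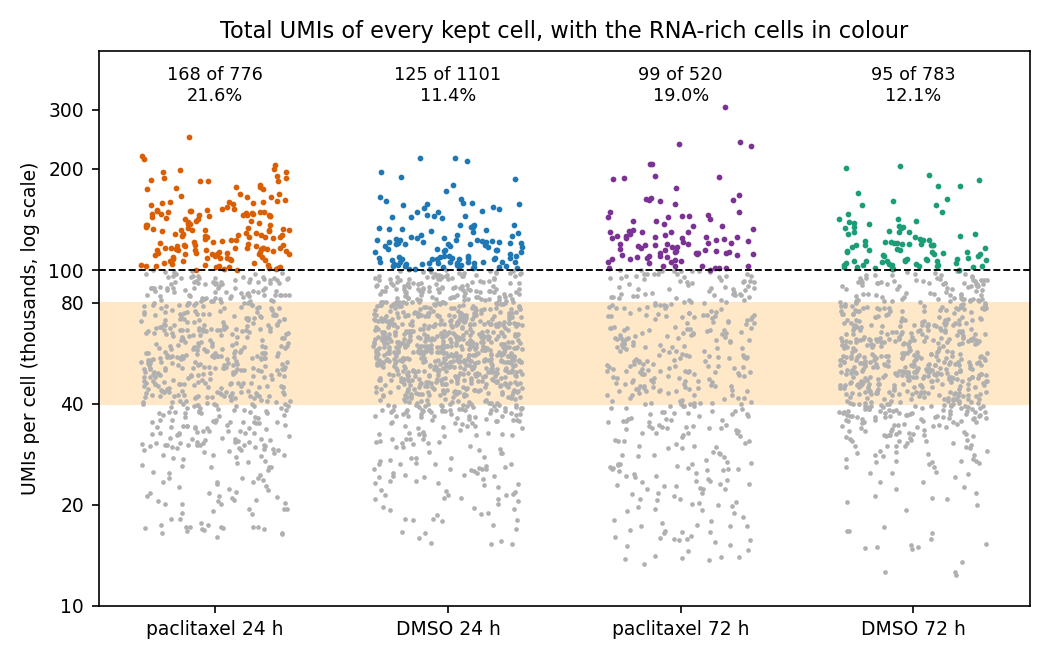
Total UMIs of every kept cell (points, log scale) in the 4 libraries, spread sideways at random; the dashed line marks 100000 UMIs and the band 40000 to 80000 UMIs. RNA-rich cells, in colour, were 21.6% and 19.0% of the paclitaxel libraries at 24 h and 72 h, and 11.4% and 12.1% of the DMSO libraries at 24 h and 72 h.

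RNA-rich cells were set against cells of 40000 to 80000 UMIs of the same library, called mid-range cells here. They numbered 333 (paclitaxel 24 h), 666 (DMSO 24 h), 202 (paclitaxel 72 h) and 432 (DMSO 72 h). UMIs were summed over the cells of a class and scaled to a common total of 1000000 (CPM), so a ratio compares shares of the RNA, not molecules per cell. The RNA-rich sums held 11738659 to 22785062 UMIs and the mid-range sums 11603822 to 38863641. Both classes carried the markers of an epithelial line. The 8 epithelial markers (EPCAM, keratins 8, 18 and 19, E-cadherin, claudins 4 and 7, ELF3) were in every table and summed to 2148 to 3814 CPM in RNA-rich cells, against 1754 to 3555 CPM in mid-range cells. Of the markers of other cell types, 4 of 5 fibroblast genes (COL1A2, DCN, LUM and PDGFRB) and PECAM1 were in no table, and the listed fibroblast, blood and endothelial sets each stayed at or below 14.1 CPM in either class. A pair of libraries shared at most 4 cell barcodes, of which at most 1 was RNA-rich.

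At each time more genes were called between RNA-rich and mid-range cells in paclitaxel than in DMSO. A gene was called higher or lower at a ratio of at least 1.5-fold, a mean of at least 50 CPM over both classes and a 95% interval without 1. After 24 h in paclitaxel 89 of 2539 genes (3.51%) were called higher and 24 (0.945%) lower, against 31 of 2722 (1.14%) higher and 13 (0.478%) lower after 24 h in DMSO. After 72 h in paclitaxel 25 of 2813 (0.889%) were called higher and 15 (0.533%) lower, against 2 of 2164 (0.0924%) higher and 7 (0.323%) lower in DMSO. The balance of higher and lower calls moved with the scaling. With totals without ribosomal protein and mitochondrial genes the calls were 49 higher and 41 lower in paclitaxel at 24 h, and 5 higher and 5 lower in DMSO at 72 h. With TMM factors, a scaling that trims extreme genes, they were 40 higher and 8 lower in paclitaxel at 72 h, and 6 higher and 5 lower in DMSO at 72 h. The median log2 ratio of all genes of at least 50 CPM was 0.12 in paclitaxel at 24 h and between -0.01 and 0.04 in the other libraries, and no ratio below has it subtracted.

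Genes of late G2 and mitosis were among those that stood highest in RNA-rich cells of paclitaxel. In RNA-rich cells of the paclitaxel libraries CCNB2, cyclin B2, a partner of the mitotic kinase CDK1, had 109 CPM at 24 h, against 40.6 CPM in mid-range cells (log2 ratio 1.43, 95% interval 1.31 to 1.54), and 82.6 CPM at 72 h, against 28.8 CPM (1.52). In DMSO it had 82.5 CPM in RNA-rich cells and 49.9 CPM in mid-range cells at 24 h (0.72), and 57.9 CPM and 50.2 CPM at 72 h (0.21, 0.07 to 0.34). The ratio thus passed 1.5-fold in 3 of the 4 libraries and not in DMSO at 72 h. Single cells overlapped widely: in paclitaxel at 24 h the lowest, median and highest RNA-rich cell had 0, 59.9 and 587 CPM, against 0, 23.1 and 301 CPM in mid-range cells. Of the 168 RNA-rich cells 134 lay above the mid-range median, a count taken without equal depth.

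AURKA, the Aurora A kinase that builds spindle poles, had 113 CPM in RNA-rich cells and 39.3 CPM in mid-range cells of paclitaxel at 24 h (log2 ratio 1.52, 1.40 to 1.64). In DMSO at 24 h it had 111 and 68.9 CPM (0.68, 0.60 to 0.77). The RNA-rich levels of the 24 h libraries were thus alike, and the mid-range level was lower in paclitaxel. At 72 h AURKA stayed under 50 CPM, with 46.4 CPM in RNA-rich cells and 17.7 CPM in mid-range cells of paclitaxel (log2 ratio 1.39), and 38.4 and 33.6 CPM in DMSO (0.19). CDC20, which activates the anaphase-promoting complex, had log2 ratios of 1.26 (1.15 to 1.38) in paclitaxel and 0.60 (0.50 to 0.70) in DMSO at 24 h. At 72 h the CDC20 ratios were 1.54 (1.37 to 1.72) in paclitaxel and 0.49 (0.32 to 0.65) in DMSO. PTTG1, securin, which holds sister chromatids together until anaphase, followed the same order, with 1.09 in paclitaxel and 0.47 in DMSO at 24 h, and 1.20 in paclitaxel and 0.19 in DMSO at 72 h. UBE2S, an E2 enzyme of the anaphase-promoting complex, lay higher in most RNA-rich cells: 151 of 168 RNA-rich cells of paclitaxel at 24 h lay above the mid-range median of 218 CPM, and its class levels were 861 CPM (RNA-rich) and 395 CPM (mid-range). CCNB1, the other main B-type cyclin, had a mean of both classes below 50 CPM, with 59.9 CPM (RNA-rich) and 18.6 CPM (mid-range) in paclitaxel at 24 h and 42.0 and 10 CPM in paclitaxel at 72 h.

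In all, 18 genes were called higher in both paclitaxel libraries, 13 of them in neither DMSO library, and 2 in both DMSO libraries. Over all tested genes 3.51% (24 h) and 0.889% (72 h) were called higher in paclitaxel, and 1.14% and 0.0924% in DMSO. DMSO at 72 h had only 2 such calls, so few genes could be called in both DMSO libraries. A missing DMSO call does not mean a level ratio: PTTG1 was above 0 in both DMSO libraries and missed the cut. Beside CCNB2, CDC20, PTTG1 and UBE2S the 18 included CDK1, the kinase that starts mitosis, TOP2A, the topoisomerase that untangles chromosomes, TPX2, a spindle assembly factor, and CDKN3, a phosphatase that acts on CDK1 and CDK2. They also included UBE2C, which works with UBE2S, and BIRC5, survivin, of the chromosomal passenger complex. PSAT1, an enzyme of serine synthesis, and TUBA1B, an alpha-tubulin, were among them as well. Many promoters of G2/M genes carry the cell cycle homology region, CHR, the letters TTTGAA, often with CCAAT boxes, which NF-Y binds. The 250 bases before the start of 3 G2/M genes, chosen because they hold both motifs, and of CXCL1, which was called higher in all 4 libraries, are shown to compare these letters, from RefSeq on GRCh38.p14, 5′ to 3′ on the gene's strand. Capitals mark TTTGAA and CCAAT on either strand (TTCAAA and ATTGG on the other). The windows lie at chr15:59104896-59105145 (CCNB2), chr10:60778081-60778330 (CDK1), chr14:54396757-54397006 (CDKN3) and chr4:73869143-73869392 (CXCL1), all on the plus strand.
CCNB2: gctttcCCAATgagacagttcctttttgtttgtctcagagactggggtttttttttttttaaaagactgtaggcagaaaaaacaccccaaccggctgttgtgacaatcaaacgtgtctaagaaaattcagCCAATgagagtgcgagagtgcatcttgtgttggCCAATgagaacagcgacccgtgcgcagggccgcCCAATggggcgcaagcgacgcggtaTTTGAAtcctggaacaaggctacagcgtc
CDK1: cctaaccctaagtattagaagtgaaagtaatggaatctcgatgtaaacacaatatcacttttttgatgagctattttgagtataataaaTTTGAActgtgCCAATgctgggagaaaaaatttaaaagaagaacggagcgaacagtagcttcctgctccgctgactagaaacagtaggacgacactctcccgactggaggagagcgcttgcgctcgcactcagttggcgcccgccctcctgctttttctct
CDKN3: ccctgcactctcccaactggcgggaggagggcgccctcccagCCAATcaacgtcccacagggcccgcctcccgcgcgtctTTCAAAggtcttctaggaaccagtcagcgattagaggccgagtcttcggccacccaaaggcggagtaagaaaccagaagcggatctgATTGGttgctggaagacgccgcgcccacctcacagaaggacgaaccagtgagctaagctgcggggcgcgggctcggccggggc
CXCL1: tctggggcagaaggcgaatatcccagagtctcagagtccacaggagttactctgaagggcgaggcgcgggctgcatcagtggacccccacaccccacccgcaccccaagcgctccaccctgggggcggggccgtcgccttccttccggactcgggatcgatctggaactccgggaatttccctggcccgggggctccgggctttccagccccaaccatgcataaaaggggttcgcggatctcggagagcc
The CCNB2, CDK1 and CDKN3 windows hold both motifs, and the CXCL1 window holds neither. Of other genes with high ratios, the UBE2S and PTTG1 windows hold CCAAT and no TTTGAA on either strand, and the ARL6IP1 window holds neither. Over the G2/M list 44 of 54 genes had a window in the RefSeq table; 23 of them (52.3%) held TTTGAA on either strand and 30 (68.2%) CCAAT. Of all 35116 windows 13.3% held TTTGAA and 32.0% CCAAT. A match in a window of this length is a description of its letters, not evidence of binding.

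The lists of cell division genes, whose members stand in a fixed list whatever their ratio, gave the same order of libraries. List members were counted at a mean of at least 10 CPM, a 1.5-fold ratio and an interval without 1; at this minimum 2.4% of 7952 genes were called higher and 1.35% lower in paclitaxel at 24 h, and 0.819% of 8061 higher and 0.782% lower in DMSO at 24 h. At 72 h they were 1.21% of 8605 higher and 1.23% lower in paclitaxel, and 0.102% of 7812 higher and 0.512% lower in DMSO. Of the G2/M phase list 38 of 52 measured genes were called higher in paclitaxel at 24 h (median log2 ratio 0.76, against 0.04 for all genes of at least 10 CPM) and 7 of 52 in DMSO (median 0.28, all genes 0.00). At 72 h 32 of 49 were called higher in paclitaxel (median 0.71, all genes -0.06) and 0 of 48 in DMSO (median 0.11, all genes -0.03). None was called lower in any library. The highest member reached 1.52 in paclitaxel at 24 h and 1.54 at 72 h, against 0.83 and 0.49 in DMSO. Against a narrower mid-range class of 50000 to 70000 UMIs the DMSO 72 h median was -0.03, so no direction is read there.

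Summed over its genes, the G2/M list was higher in RNA-rich than in mid-range cells of 3 libraries, and its sums were close in DMSO at 72 h. RNA-rich cells held 5979.9 CPM (paclitaxel) and 6345 CPM (DMSO) of its genes at 24 h, and 4026 CPM (paclitaxel) and 3234 CPM (DMSO) at 72 h. Mid-range cells held 3647 CPM (paclitaxel) and 5285 CPM (DMSO) at 24 h, and 2621 CPM (paclitaxel) and 3067 CPM (DMSO) at 72 h. The mid-range level was lower in paclitaxel than in DMSO at both times, while the RNA-rich level was lower in paclitaxel at 24 h and higher at 72 h. With every cell thinned to 40000 UMIs, 130 of 168 RNA-rich cells of paclitaxel at 24 h lay above the mid-range median of the list (77.4%), against 77 of 125 (61.6%) in DMSO. At 72 h it was 73 of 99 (73.7%) in paclitaxel and 70 of 95 (73.7%) in DMSO. The DMSO 72 h median per cell was thus higher in RNA-rich cells (3000 CPM) than in mid-range cells (1625 CPM), although the sums were close. Its upper quartiles were closer, at 4363 CPM in RNA-rich and 4025 CPM in mid-range cells, and its highest cells had 14850 and 17825 CPM.

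**Figure D2:**
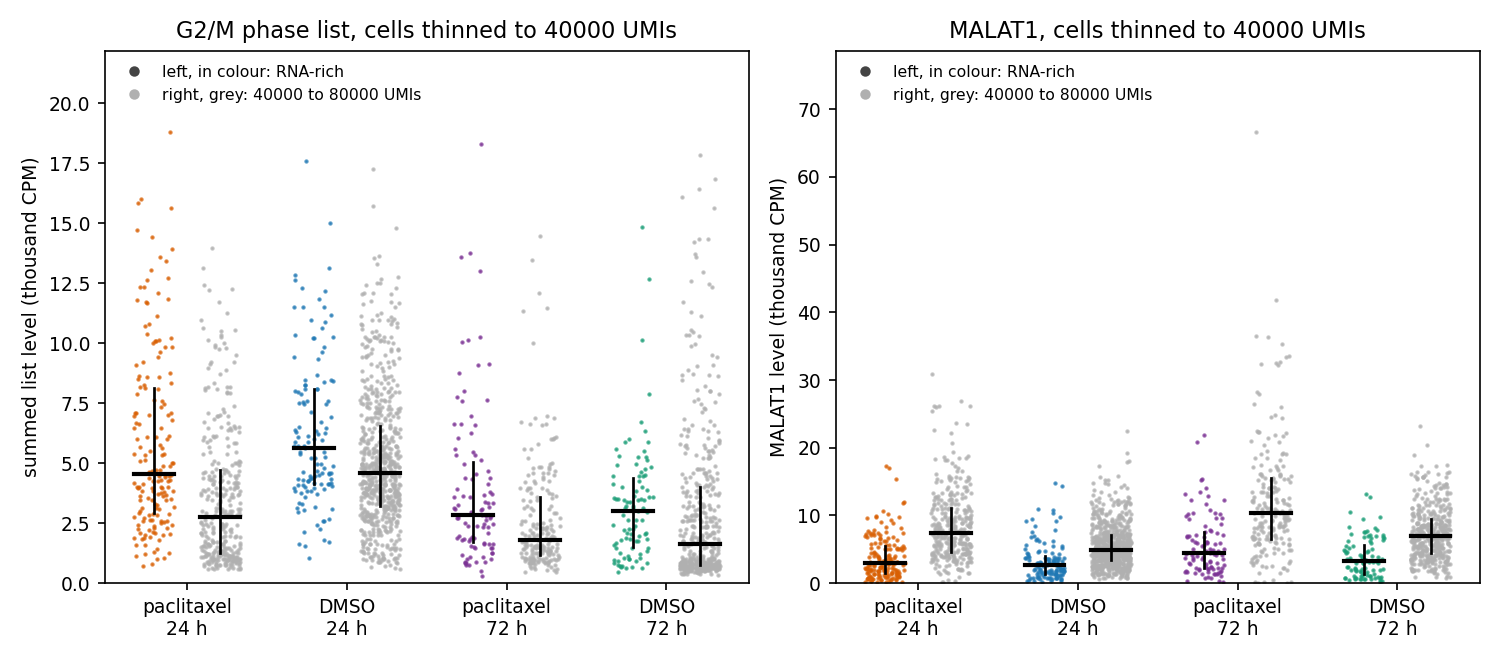
Summed CPM of the G2/M phase list (left panel) and CPM of MALAT1 (right panel) per cell after thinning to 40000 UMIs, RNA-rich cells in colour and mid-range cells in grey for each library; the thick bar is the median and the thin line the quartiles. The medians of the list were 4563 CPM (RNA-rich) and 2750 CPM (mid-range) in paclitaxel at 24 h, and the clouds of both classes overlapped in every library.

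The lists for the machinery of division split along the same lines. Of the spindle checkpoint and kinetochore genes, which hold anaphase until chromosomes attach, 13 of 20 were called higher in paclitaxel at 24 h (median 0.76) and 2 of 19 in DMSO (0.23), and 12 of 19 in paclitaxel at 72 h (0.69) and 0 of 17 in DMSO (0.09). Members were CENPA, the centromere histone, at 0.93 in paclitaxel and 0.42 in DMSO at 24 h, and BUB1, a checkpoint kinase, at 1.39 in paclitaxel and 0.24 in DMSO at 72 h. Cytokinesis genes, which part the daughter cells, were called higher in 7 of 18 and 6 of 17 cases in paclitaxel at 24 h and 72 h, and in 1 of 18 and 0 of 18 in DMSO at 24 h and 72 h. Among them AURKB, the Aurora B kinase, had log2 ratios of 1.00 in paclitaxel and 0.47 in DMSO at 24 h. RACGAP1, of the central spindle, had 0.61 and 0.12. Tubulins, the subunits of the paclitaxel target, were called higher in 6 of 10 cases in paclitaxel and 2 of 10 in DMSO at 24 h, and in 1 of 12 and 0 of 8 at 72 h. TUBB4B, a beta-tubulin, had 287 CPM in RNA-rich cells and 136 CPM in mid-range cells of paclitaxel at 24 h (log2 ratio 1.08), and 258 and 192 CPM in DMSO (0.43). Some tubulin genes are close in sequence to each other, so the split of reads between such genes can be uncertain.

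**Figure D3:**
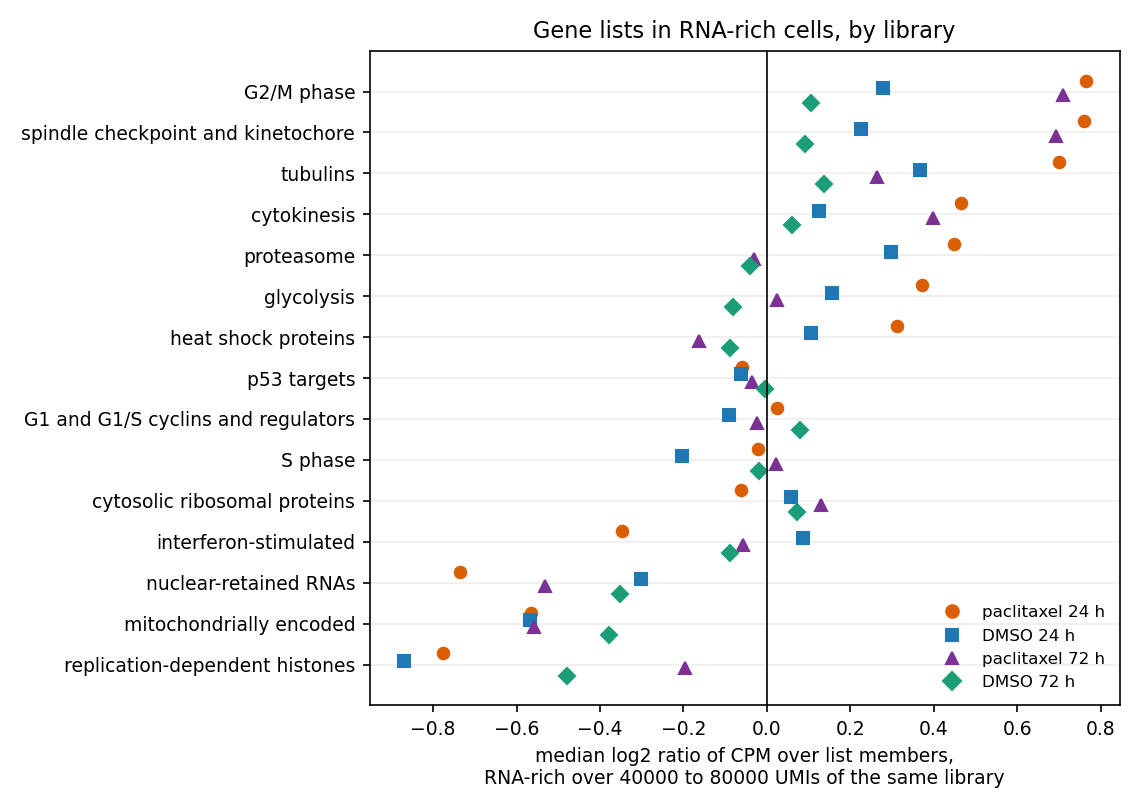
Median log2 ratio of CPM, RNA-rich over mid-range cells of the same library, over the measured members of 15 gene lists; each symbol is 1 library. The G2/M list had 0.76 and 0.71 in paclitaxel at 24 h and 72 h, and 0.28 and 0.11 in DMSO; the mitochondrially encoded list was below 0 in every library.

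S phase genes had few calls. Of the S phase list, which holds replication factors, 0 of 38 (paclitaxel 24 h), 0 of 40 (DMSO 24 h), 1 of 37 (paclitaxel 72 h) and 0 of 35 (DMSO 72 h) were called higher, with medians of -0.02, -0.20, 0.02 and -0.02 in the same order; 1 member was called lower in each DMSO library and none in paclitaxel. Per cell at 40000 UMIs, 89 of 168 RNA-rich cells of the paclitaxel 24 h library lay above the mid-range median of the list, with medians of 1650 CPM in RNA-rich and 1600 CPM in mid-range cells. In the DMSO 24 h library it was 39 of 125 (31.2%), with 1850 and 2375 CPM. At 72 h it was 68 of 99 (68.7%) in paclitaxel, with 1025 and 650 CPM, and 67 of 95 (70.5%) in DMSO, with 1175 and 800 CPM. The median level per cell was thus higher in RNA-rich cells in both 72 h libraries, lower in DMSO at 24 h, and close in paclitaxel at 24 h. PCNA, the sliding clamp of DNA polymerase, and MCM2, of the replicative helicase, had log2 ratios between -0.41 and 0.13 in all 4 libraries. Replication-dependent histones, whose RNAs peak in S phase, were called lower in 3 of 5 cases in paclitaxel and 4 of 4 in DMSO at 24 h, and in 1 of 6 and 2 of 6 at 72 h. Their RNAs mostly lack a poly(A) tail, so poly(A) capture counts only part of them. HIST1H4C, a histone H4 gene, had 815 CPM in RNA-rich cells and 1264 CPM in mid-range cells of DMSO at 24 h (log2 ratio -0.63). In paclitaxel at 72 h it had 281 and 217 CPM (0.37).

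A handful of genes set RNA-rich cells apart whatever the treatment. CXCL1, a secreted attractant of neutrophils, was called higher in all 4 libraries, as was the transcript RP11-402P6.11; MALAT1 and MT-ND3 were called lower in all 4. CXCL1 had 215 CPM in RNA-rich cells and 118 CPM in mid-range cells of paclitaxel at 24 h, and 183 and 98.8 CPM in DMSO. At 72 h it had 414 and 241 CPM in paclitaxel and 93.5 and 57.2 CPM in DMSO. Its log2 ratios thus stayed between 0.71 and 0.89, while its level was higher in paclitaxel than in DMSO at 72 h in both classes. RP11-402P6.11, to which no role is given in the sources used here, had log2 ratios of 0.94 (paclitaxel) and 1.41 (DMSO) at 24 h and of 1.10 (paclitaxel) and 0.97 (DMSO) at 72 h.

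MALAT1, a long non-coding RNA that stays in the nucleus (chr11:65497688-65506516, plus strand, GENCODE release 29 on GRCh38), had the lowest ratio on average over the libraries among genes of at least 50 CPM in every library (mean log2 ratio -1.05). RNA-rich and mid-range cells had 3610.3 and 8404 CPM in paclitaxel at 24 h (log2 ratio -1.22), and 3275 and 5583 CPM in DMSO (-0.77). At 72 h they had 5277 and 11977 CPM in paclitaxel (-1.18), and 3594 and 7293 CPM in DMSO (-1.02). Only 21 of 168, 23 of 125, 13 of 99 and 14 of 95 RNA-rich cells, in the order of paclitaxel and DMSO at 24 h and paclitaxel and DMSO at 72 h, lay above the mid-range median. NEAT1, another nuclear RNA and the scaffold of paraspeckles, was called lower in paclitaxel at 24 h (-0.60), with -0.28 in the DMSO 24 h library, -0.51 in the paclitaxel 72 h library and -0.04 in the DMSO 72 h library. Of the nuclear-retained RNAs as a list 3 of 4 measured were called lower in paclitaxel at 24 h and 1 of 4, MALAT1, in each other library. Among the other lowest genes were AHNAK2, a very large scaffold protein, CEP350 of the centrosome, the splicing factors PRPF38B and PNISR, and UPF2 of nonsense-mediated decay. AHNAK2 was called lower in both paclitaxel libraries (-0.78 at 24 h and -0.60 at 72 h), with -0.36 and -0.47 in DMSO.

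RNAs encoded by the mitochondrial genome took a smaller share of RNA-rich cells. None of the 13 genes was called higher; 6 (paclitaxel 24 h), 6 (DMSO 24 h), 5 (paclitaxel 72 h) and 2 (DMSO 72 h) were called lower, with medians of -0.56, -0.57, -0.56 and -0.38 in the same order. Their sum was 53104 CPM in RNA-rich cells and 78146 CPM in mid-range cells of paclitaxel at 24 h, and 57999.7 and 80061 CPM in DMSO. MT-ND3, a subunit of respiratory complex I, had log2 ratios of -0.87 (paclitaxel) and -0.66 (DMSO) at 24 h and -0.60 (paclitaxel) and -0.64 (DMSO) at 72 h. MT-CO3, of complex IV, was called lower in 3 libraries and had -0.56 in DMSO at 72 h. Cells were kept only under 20% mitochondrial UMIs, and RNA-rich cells had median shares of 5.43% and 5.92% at 24 h (paclitaxel, DMSO) and 5.81% and 5.85% at 72 h. The mid-range medians were 7.77% and 8.02% at 24 h and 7.38% and 7.13% at 72 h. MTRNR2L1, a nuclear copy of the mitochondrial large ribosomal RNA gene, had log2 ratios from -0.69 (DMSO 24 h) to -0.45 (DMSO 72 h), and its reads can stem from the mitochondrial gene.

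Ribosomal proteins were not called. Of 82 cytosolic ribosomal protein genes none was called in either direction in any library, with medians of -0.06 (paclitaxel 24 h), 0.06 (DMSO 24 h), 0.13 (paclitaxel 72 h) and 0.07 (DMSO 72 h). Nuclear-encoded subunits of oxidative phosphorylation were called higher in 1 of 76 cases in paclitaxel at 24 h and in none elsewhere. Proteasome subunits, which degrade tagged proteins, were called higher in 7 of 37 cases in paclitaxel and 3 of 36 in DMSO at 24 h (medians 0.45 and 0.30), and in 0 of 37 and 0 of 36 at 72 h. PSMB3, of the catalytic core ring, had 95.4 CPM in RNA-rich cells and 61.5 CPM in mid-range cells of paclitaxel at 24 h (log2 ratio 0.63), and 105 and 67.1 CPM in DMSO (0.65). Glycolytic enzymes were called higher in 2 of 16 cases in paclitaxel at 24 h, LDHA (0.61) and TPI1 (0.59), and heat shock proteins in 2 of 15, HSPA8 (0.75) and DNAJA1 (0.65). Neither list had a call in the other 3 libraries. Mitochondrial ribosomal proteins had 3 of 75 called higher in paclitaxel at 24 h and 1 of 75 in DMSO at 24 h, with medians of 0.31 and 0.12.

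Phase calls placed more RNA-rich than mid-range cells in G2/M in every library. Each cell was thinned to 40000 UMIs and called G1, S or G2/M from the S and G2/M lists; a G1 call means low scores on both. In paclitaxel at 24 h 62.5% of RNA-rich cells (exact interval 54.7 to 69.8%) were called G2/M, against 27.9% (23.2 to 33.1%) of mid-range cells. In DMSO at 24 h the shares were 67.2% (58.2 to 75.3%) and 43.7% (39.9 to 47.6%). In paclitaxel at 72 h they were 29.3% (20.6 to 39.3%) and 14.4% (9.83 to 19.96%), and in DMSO 49.5% (39.1 to 59.9%) and 25.2% (21.2 to 29.6%). The intervals of the 2 classes overlapped in no library. Cells of 80000 to 100000 UMIs, in neither class, had G2/M shares of 42.6% (paclitaxel) and 69.3% (DMSO) at 24 h. At 72 h theirs were 28.8% (paclitaxel) and 40.9% (DMSO). In DMSO at 24 h and paclitaxel at 72 h the G2/M share was thus about as high just below 100000 UMIs as above it. RNA-rich cells were not all G2/M cells: 23.2% (paclitaxel) and 12% (DMSO) were called G1 at 24 h, and 63.6% (paclitaxel) and 42.1% (DMSO) at 72 h. In paclitaxel at 72 h most RNA-rich cells thus carried a G1 call when the libraries were scored together. A second random thinning gave G2/M shares of 66.7% and 76.0% of RNA-rich cells at 24 h (paclitaxel, DMSO) and 33.3% and 51.6% at 72 h, and scoring each library alone gave 67.3% and 70.4% at 24 h and 41.4% and 44.2% at 72 h. The order of paclitaxel and DMSO at 72 h was kept under both. Scored alone, however, the libraries differed little at 72 h, with 41.4% in paclitaxel and 44.2% in DMSO. Under that scoring 14 of the other phase shares moved and 6 did not. Free RNA in droplets enters these calls, and its part was not tested.

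**Figure D4:**
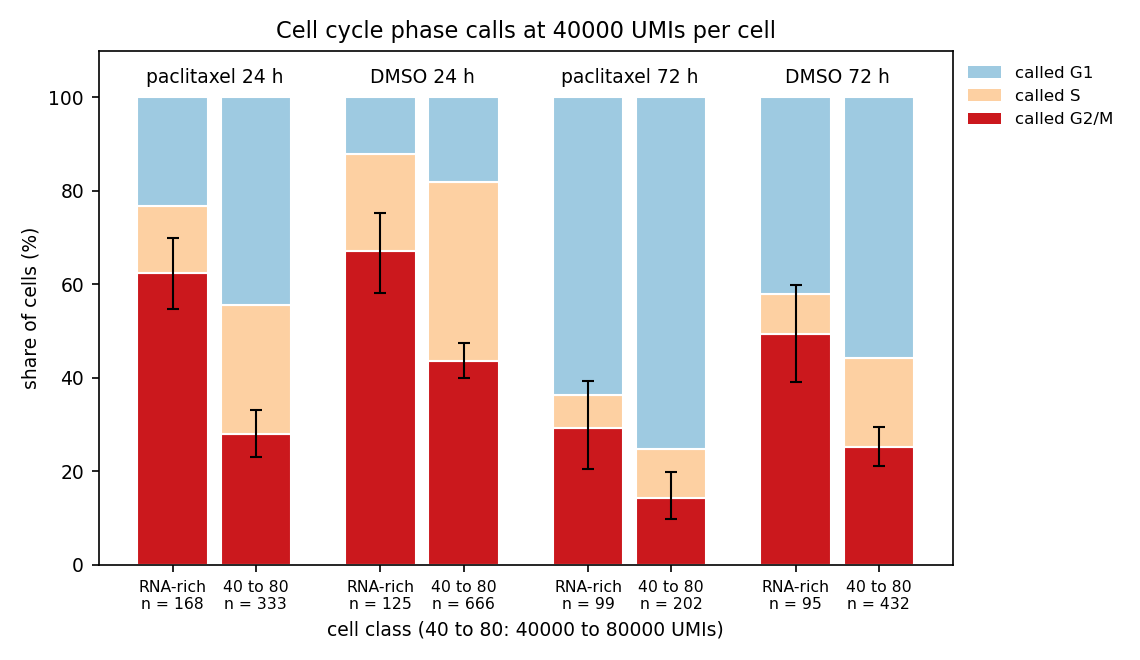
Share of cells called G1, S and G2/M among RNA-rich and mid-range cells of each library, with cells thinned to 40000 UMIs; the error bars are exact binomial 95% intervals of the G2/M share. The G2/M share was higher in RNA-rich cells of every library, from 29.3% in paclitaxel at 72 h to 67.2% in DMSO at 24 h.

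Read the other way, RNA-rich cells made up 44.1% of G2/M-called and 17.5% of G1-called cells of at least 40000 UMIs after 24 h in paclitaxel. In DMSO at 24 h they made up 17.9% and 9.93%. At 72 h they made up 37.7% and 24.7% in paclitaxel, and 24.5% and 12.4% in DMSO. RNA-rich cells were therefore a larger share in paclitaxel than in DMSO among cells of either call and at either time. The intervals did not overlap for G2/M calls at 24 h (37.7 to 50.7% in paclitaxel, 14.5 to 21.6% in DMSO) and for G1 calls at 72 h (19.5 to 30.5% in paclitaxel, 9.02 to 16.5% in DMSO). They overlapped for G1 calls at 24 h and G2/M calls at 72 h. The median UMI count of G2/M-called cells was 1.40 (paclitaxel 24 h), 1.34 (DMSO 24 h), 1.29 (paclitaxel 72 h) and 1.31 (DMSO 72 h) times that of G1-called cells.

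Within G2/M-called cells the G2/M list stood close to level in 3 libraries and lower in RNA-rich cells of DMSO at 72 h, while mitochondrial RNA and MALAT1 remained lower in all 4. There were 105 RNA-rich and 93 mid-range G2/M-called cells in the paclitaxel 24 h library, 84 and 291 in the DMSO 24 h library, 29 and 29 in the paclitaxel 72 h library, and 47 and 109 in the DMSO 72 h library. The G2/M list, which the calls use, had medians of 0.07, 0.01, 0.19 and -0.56 in that order. In DMSO at 72 h 24 of 54 members were lower in RNA-rich cells by at least 1.5-fold and none higher. At this minimum 0.587% of 7839 genes were called higher and 2.84% lower within these cells of DMSO at 72 h. Single genes did not move alike. CCNB1 had log2 ratios of 0.94 (paclitaxel 24 h), 0.56 (DMSO 24 h), 1.65 (paclitaxel 72 h) and -0.49 (DMSO 72 h) among G2/M-called cells. MKI67, the Ki-67 proliferation marker, had -0.21, -0.40, -0.08 and -0.71, and HIST1H4C -1.23, -0.95, -0.63 and -1.02. CCNB1 was thus higher in 3 of the 4 libraries and HIST1H4C lower in all 4. The paclitaxel 72 h values rest on 29 cells of each class, so a few cells can move a single gene there. The spread between cells was not tested. MALAT1 was lower in all 4, at -1.05, -0.71, -1.05 and -1.09, and so was the mitochondrially encoded list, with medians of -0.64, -0.56, -0.42 and -0.40.

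RNA-rich cells called G1 bear on the reading of cells enlarged after a failed division. There were 39 in paclitaxel and 15 in DMSO at 24 h, and 63 in paclitaxel and 40 in DMSO at 72 h; the 15 are too few to read single genes from. Their G2/M list stayed far below that of G2/M-called cells: 2119.8 CPM at 24 h and 2153 CPM at 72 h in paclitaxel, against 7853 and 7701 CPM in RNA-rich cells called G2/M. It was above that of mid-range cells called G1, which held 1418 and 1626 CPM, and the S phase list was above it as well. The medians among G1-called cells were 0.85 and 0.70 (G2/M and S lists) in paclitaxel at 24 h, 0.54 and 0.47 in paclitaxel at 72 h, and 0.59 and 0.74 in DMSO at 72 h. TYMS, thymidylate synthase, which makes a DNA precursor, had 179.6 CPM in RNA-rich and 71.9 CPM in mid-range G1-called cells of paclitaxel at 24 h. At 72 h it had 94.5 and 56.2 CPM in paclitaxel, and 79.4 and 47.2 CPM in DMSO. Both lists were therefore higher in RNA-rich G1-called cells of DMSO at 72 h too. The calls use these lists, so their values within a call are shaped by it.

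Genes known to respond to a failed division did not share 1 direction in RNA-rich G1-called cells. Tetraploid cells are known to activate LATS2 of the Hippo pathway and p53. CDKN1A, the p53-induced inhibitor p21, had 65.4 CPM in RNA-rich and 52.0 CPM in mid-range G1-called cells of paclitaxel at 24 h, 98.1 and 115 CPM in paclitaxel at 72 h, and 46.5 and 38.3 CPM in DMSO at 72 h. LATS2 had 22.7 and 24.2 CPM in paclitaxel at 72 h, and 17.4 and 15.1 CPM in DMSO. GADD45A, a growth arrest gene and p53 target, was higher in all of these: it had 169.7 CPM in RNA-rich and 95.1 CPM in mid-range G1-called cells of paclitaxel at 24 h (log2 ratio 0.83), 303 and 246 CPM in paclitaxel at 72 h (0.30), and 33.2 and 22.9 CPM in DMSO at 72 h (0.53). MDM2, the p53 inhibitor and target, had log2 ratios of -0.04 (paclitaxel 24 h), -0.32 (paclitaxel 72 h) and -0.10 (DMSO 72 h). The p53 target list had medians of 0.05, 0.00 and 0.02 in the same libraries. Over all cells of a class, 0 of 14 (paclitaxel) and 1 of 15 (DMSO) p53 targets were called higher at 24 h, and 1 of 16 (paclitaxel) and 0 of 13 (DMSO) at 72 h. The G1 and G1/S cyclins and regulators had no call in any library; CCND1, cyclin D1, had 1721 CPM in RNA-rich and 1649 CPM in mid-range cells of paclitaxel at 72 h. No measure of DNA content exists here, so ploidy was not tested.

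CTGF, a matrix-associated target of YAP, which Hippo signalling restrains, was lower in RNA-rich cells of 3 libraries. It had 45.3 CPM in RNA-rich and 86.7 CPM in mid-range cells of paclitaxel at 24 h (log2 ratio -0.94), and 17.8 and 34.3 CPM in DMSO (-0.95, under the 50 CPM minimum). At 72 h it had 74.5 and 75.4 CPM in paclitaxel (-0.02), and 37.9 and 64.6 CPM in DMSO (-0.77). AREG, the EGFR ligand amphiregulin and also a YAP target, went the other way in paclitaxel at 72 h, with 112 and 47.4 CPM (1.24, 1.10 to 1.39). Of the whole list of YAP-type targets and Hippo genes 0 to 1 were called higher and 0 to 2 lower of 13 or 14 measured per library, so the list had no common direction.

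Readings of doublets, droplets that hold a pair of cells, differed between measures. Genes detected per cell, which a pair of unlike cells would raise, were close at equal depth: medians at 40000 UMIs were 6224 (RNA-rich) and 6098 (mid-range) in the paclitaxel 24 h library and 6323 and 6375 in the DMSO 24 h library. They were 6443 and 6275 in the paclitaxel 72 h library, and 6044 and 5944 in the DMSO 72 h library. At full depth the medians were 9384 and 6996 in paclitaxel at 24 h. The equal-depth medians lay inside the quartiles of the other class in every library. Scrublet, a caller that looks for cells like simulated pairs, marked 2 of 168 (paclitaxel) and 5 of 125 (DMSO) RNA-rich cells at 24 h, and 5 of 99 (paclitaxel) and 4 of 95 (DMSO) at 72 h. Among mid-range cells it marked 1 of 333 (paclitaxel) and 0 of 666 (DMSO) at 24 h, and 6 of 202 (paclitaxel) and 1 of 432 (DMSO) at 72 h. The RNA-rich shares were 1.19% (interval 0.144 to 4.23%) in paclitaxel and 4% (1.31 to 9.09%) in DMSO at 24 h. They were 5.05% (1.66 to 11.4%) in paclitaxel and 4.21% (1.16 to 10.4%) in DMSO at 72 h. The mid-range share of DMSO at 24 h was 0 of 666 cells, which allows up to 0.552%. The caller's score, which is higher the more a cell resembles simulated pairs, was higher in RNA-rich cells of every library. Its medians were 0.0821 in RNA-rich and 0.0534 in mid-range cells of the paclitaxel 24 h library, and 0.114 and 0.0683 in the DMSO 24 h library. At 72 h they were 0.0816 and 0.0617 in paclitaxel, and 0.122 and 0.0590 in DMSO. How far doublets contribute to the RNA-rich class was not tested. A caller of this kind cannot see pairs of cells in the same state.

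A pair of an S phase and a G2/M cell would carry both programmes, each diluted by the other cell, so that at equal depth a cut taken from single cells can miss it. At 40000 UMIs, both lists were above the 80th percentile of the mid-range cells of the library in 2 of 168 RNA-rich and 13 of 333 mid-range cells of the paclitaxel 24 h library and in 1 of 125 RNA-rich and 1 of 666 mid-range cells of the DMSO 24 h library. At 72 h they were above it in 10 of 99 RNA-rich and 28 of 202 mid-range cells of the paclitaxel library and in 1 of 95 RNA-rich and 19 of 432 mid-range cells of the DMSO library. Cells high for both the basal and the luminal lists, genes of different layers of the mammary epithelium, were 13.1% of RNA-rich and 10.8% of mid-range cells in paclitaxel at 24 h, and 20.8% (14.1 to 28.97%) and 8.86% (6.81 to 11.3%) in DMSO. At 72 h they were 9.09% and 10.4% in paclitaxel, and 6.32% and 6.94% in DMSO. The intervals were apart in DMSO at 24 h and overlapped elsewhere, and in that library the luminal list itself was higher in RNA-rich cells, with 3 of 12 members called. A cut on a per-cell level is a range and not a type: 16 RNA-rich cells of DMSO at 24 h lay within 5% of a cut. The share of RNA-rich cells was 21.6% (paclitaxel) and 10.96% (DMSO) at 24 h and 18.5% (paclitaxel) and 11.8% (DMSO) at 72 h without the cells that Scrublet marked.

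Levels over bins of UMIs per cell show which differences grew with RNA content. CPM is scaled by the same total UMIs that set the bins. A lower level is thus a smaller share of the RNA and need not mean fewer molecules per cell. MALAT1 was lower in each higher bin of all 4 libraries: in the bins of 40000 to 60000, 60000 to 80000, 80000 to 100000, 100000 to 120000 and over 120000 UMIs it had 8940.4, 7768, 5639, 5112 and 2937 CPM in paclitaxel at 24 h, and 5731, 5431, 5062, 3739.9 and 2897 CPM in DMSO. At 72 h the lowest and highest bins had 12834 and 4350.4 CPM in paclitaxel, and 7618 and 2786 CPM in DMSO. The mitochondrially encoded list was likewise lower in each higher bin of every library. The G2/M list took a different course in each library. In paclitaxel at 24 h it was higher in each higher bin, at 3317, 4037, 4579.7, 5230.2 and 6316 CPM. In DMSO at 24 h it was 4511, 6077, 6522, 6270.4 and 6405 CPM, without a further increase above 80000 UMIs. At 72 h it was 2825, 2409, 3474, 3122 and 4569.8 CPM in paclitaxel, and 2434, 3825, 3175, 3199 and 3272 CPM in DMSO. In DMSO its highest level was therefore not in the bin with the most UMIs. Every bin held at least 40 cells.

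**Figure D5:**
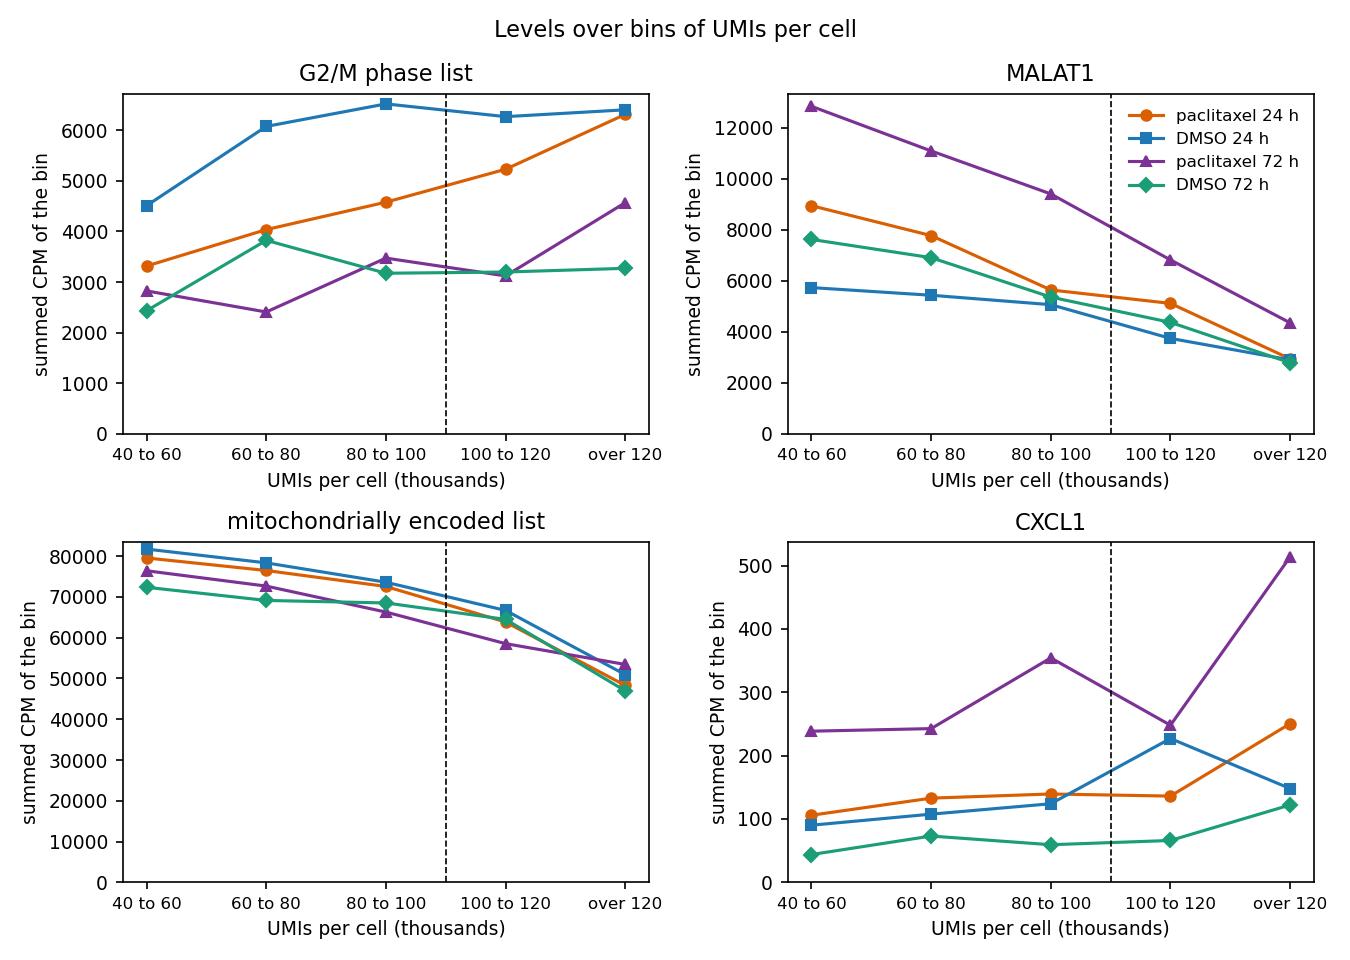
CPM of the G2/M phase list, MALAT1, the mitochondrially encoded list and CXCL1 in bins of UMIs per cell, each summed over the cells of a bin, for each library; the dashed line marks 100000 UMIs. MALAT1 and the mitochondrial list declined over the bins in all 4 libraries. The G2/M list kept increasing up to 6316 CPM in paclitaxel at 24 h and had no steady increase in the other libraries.

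The ratio of RNA-rich to mid-range cells was then compared between paclitaxel and DMSO, as the difference of the log2 ratios, called at 1.5-fold with an interval without 0. At 24 h 23 of 2420 genes (0.95%) had a higher ratio in paclitaxel and 9 (0.372%) a lower one; at 72 h 23 of 2102 (1.09%) had a higher and 4 (0.19%) a lower one. Without ribosomal and mitochondrial genes in the totals the 24 h counts were 10 and 13. Of the genes with a higher ratio in paclitaxel 9 of 23 at 24 h and 8 of 23 at 72 h belonged to the G2/M list. The share of list genes among all tested genes is not given here, so these counts are a description only. The 4 genes CCNB2, BIRC5, CDKN3 and PTTG1 were called at both times. CCNB2 differed by 0.70 (0.55 to 0.86) at 24 h and 1.31 (1.09 to 1.54) at 72 h, PTTG1 by 0.62 (0.52 to 0.72) and 1.01 (0.85 to 1.17). Over the G2/M list the median difference was 0.51 at 24 h, with 52 of 52 members above 0, against a median of 0.06 for all genes, and 0.65 at 72 h, with 47 of 48 above 0, against -0.02. With a threshold of 120000 UMIs the list medians were 0.59 at 24 h and 0.91 at 72 h. These values rest on summed UMIs. Per cell at equal depth, 77.4% (paclitaxel) and 61.6% (DMSO) of RNA-rich cells lay above the mid-range list median at 24 h. At 72 h it was 73.7% in both. The 72 h medians of RNA-rich and mid-range cells were 2850 and 1787.5 CPM in paclitaxel, and 3000 and 1625 CPM in DMSO. Medians per cell of single genes, which move in whole UMIs, gave no list difference at 72 h. The 72 h difference thus depended on the summing. At 72 h HIST1H4C (0.94), HMGB2, a chromatin protein of dividing cells (0.93), and TXNIP, an inhibitor of thioredoxin and glucose uptake (0.88), also had higher ratios in paclitaxel. The keratins KRT17 (-0.80) and KRT16 (-0.65) and ODC1, of polyamine synthesis (-0.76), had lower ones.

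The genes with a lower ratio in paclitaxel at 24 h included WFDC2 (-1.20) and SLPI (-1.21), secreted protease inhibitors, HLA-B (-0.70) and B2M (-0.65), the heavy and light chains of MHC class I, and ISG15 (-0.62), a ubiquitin-like interferon-induced protein, beside HLA-C and KRT81. The levels show which class differed. HLA-B had 691 CPM (paclitaxel) and 618 CPM (DMSO) in RNA-rich cells, and 679.6 CPM (paclitaxel) and 375 CPM (DMSO) in mid-range cells. Its log2 ratio of paclitaxel over DMSO was thus 0.16 among RNA-rich and 0.86 among mid-range cells. IFI6, a mitochondrial interferon-induced protein, had 124 CPM (paclitaxel) and 35.6 CPM (DMSO) in RNA-rich cells, and 239 CPM (paclitaxel) and 35.5 CPM (DMSO) in mid-range cells. Of the interferon-stimulated list 9 of 18 measured genes were at least 1.5-fold higher in paclitaxel among RNA-rich cells, and 18 of 19 among mid-range cells, with medians of 0.56 and 0.90. Of all genes of at least 10 CPM 2.15% were higher and 1.7% lower in paclitaxel among RNA-rich cells at 24 h, and 5.18% higher and 7.37% lower among mid-range cells. Within paclitaxel at 24 h 4 of 21 of its genes were called lower in RNA-rich than in mid-range cells and none higher.

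At 72 h several lists were higher in paclitaxel in like numbers of genes among RNA-rich and mid-range cells. Interferon-stimulated genes were at least 1.5-fold higher in paclitaxel in 26 of 28 cases among RNA-rich and 26 of 29 among mid-range cells (medians 1.84 and 1.77). IFI6 had 694 CPM in RNA-rich cells of paclitaxel, against 56.7 CPM in those of DMSO (log2 ratio of paclitaxel over DMSO 3.62), and a ratio of 3.24 among mid-range cells. Antigen presentation by MHC class I (10 of 11 among RNA-rich, 10 of 11 among mid-range cells), the proteasome (29 of 37, 28 of 37) and the NF-kB and inflammatory list (14 of 15, 14 of 15) were alike in this. All genes of at least 10 CPM had medians of 0.28 and 0.31; 25.9% were higher and 1.9% lower in paclitaxel among RNA-rich cells, and 27.4% higher and 2.77% lower among mid-range cells. CDKN1A had 90.4 CPM (paclitaxel) and 44.6 CPM (DMSO) in RNA-rich cells, and 119 and 39.6 CPM in mid-range cells. The G2/M list had medians of opposite sign: paclitaxel over DMSO it was 0.15 among RNA-rich cells, with 9 of 52 genes at least 1.5-fold higher and 2 lower, and -0.51 among mid-range cells, with 2 of 47 higher and 19 lower. At 24 h its medians were -0.05 among RNA-rich cells, with 0 of 54 in either direction, and -0.55 among mid-range cells, with 22 of 51 lower and 0 higher. More of its genes thus passed 1.5-fold among mid-range than among RNA-rich cells at both times.

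Of the secreted factors known from senescent cells 2 of 11 (paclitaxel) and 3 of 11 (DMSO) were called higher at 24 h, and 1 of 13 and 1 of 11 at 72 h. CXCL8, interleukin-8, had 98.5 CPM in RNA-rich and 56.4 CPM in mid-range cells of paclitaxel at 24 h (log2 ratio 0.80), and 58.6 and 26.3 CPM in DMSO (1.15). At 72 h its ratios were 0.15 in paclitaxel and 0.35 in DMSO. SOD2, the mitochondrial superoxide dismutase, was called lower in paclitaxel at 72 h (-0.73) and not in the other libraries (-0.23, 0.06 and -0.22 in paclitaxel at 24 h and DMSO at 24 h and 72 h). In DMSO at 24 h RNA-rich cells also had more of the actin-binding TAGLN, transgelin, with 100.1 CPM and 41.9 CPM in mid-range cells (1.26), and of the keratins KRT81 (0.94) and KRT18 (0.75). Keratins KRT5 and KRT14, of the basal layer, and VIM, vimentin, were called in no library. GAPDH and ACTB, common loading controls, lay between -0.10 and 0.55.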

How the data were processed

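The deposited files hold whole-number UMI counts per gene and cell, 1 table per library, and per the submitters' processing notes the authors made them with Cell Ranger 2.0 on GRCh38; further steps are not given in the sources used here. A gene stands in a table only where at least 1% of its cells had a UMI, so an unlisted gene is not a measured 0. The tables list 3194 barcodes with 34997421 to 72057374 UMIs per library.

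Barcodes with at least 500 genes and under 20% mitochondrial UMIs were kept (3180). RNA-rich cells had over 100000 UMIs and mid-range cells 40000 to 80000. UMIs were summed per class, and ratios carry exact conditional binomial 95% intervals; shares carry Clopper-Pearson intervals. All intervals cover counting error only. Phases were called with scanpy 1.11.5 on cells thinned at random to 40000 UMIs, over the 4 libraries together. Cells that Scrublet marked as doublets were kept in the main values and left out in an alternative. TMM factors came from edgeR 4.0.16 in R 4.3.3; other steps used Python 3.11.15, numpy 2.4.6, scipy 1.17.1 and pandas 2.3.3. The intervals and calls were tested on simulated counts with counting error only. That simulation held no spread between cells or libraries, so it cannot show how the intervals behave under such spread.

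The members, the 38 gene lists and the rules were chosen with earlier results of these data known. Named genes are the 12 highest and 12 lowest by mean ratio over the libraries at 50 CPM or more without mitochondrial and ribosomal protein genes, the 4 highest and 4 lowest per library, the 6 highest and 6 lowest differences between paclitaxel and DMSO at each time, at most 4 genes per list by absolute mean ratio, and a fixed set of cell cycle, keratin, interferon and loading control genes. Per-cell CPM of single genes were not thinned. Alternatives were other thresholds, comparison cells, scalings, minimums, cell filters, phases and thinnings.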

Additional observations from a re-analysis of the deposited data

Results flagged for a closer look

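SLPI, a secreted protease inhibitor of epithelia, was called in opposite directions after 24 h. Its log2 ratio of RNA-rich over mid-range cells was -0.60 in paclitaxel and 0.61 in DMSO. With 1 library per group the difference between the groups was not tested against a spread between samples; by counting error alone the ratios differed by -1.21 on the log2 scale.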

How the results depend on the processing

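Of 363 recomputed main values, 248 stayed within 1.5 times (counts) or within the main interval (shares and medians). Of 15749 values of single genes, lists and phase shares, 14805 were labelled unchanged. For a gene with a main call this means that the call was kept. A gene without one counted as unchanged unless it became called in the direction of its main ratio. Such a gene could change sign without being listed as reversed. AURKA in DMSO at 72 h, for example, had -0.62 within G2/M calls, from a main ratio above 0. Of the 18 main values recomputed without the 3 deepest cells, the 20 with all barcodes and the 4 with cells thinned to 20000 UMIs, none moved. No paired analysis was possible because each group is 1 library. Calls are given as higher and lower; where only some main values moved, the rest stayed within 1.5 times or their interval, and the cause was not tested.

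Thresholds. Above 90000 UMIs the shares were 26.9% (paclitaxel) and 16.4% (DMSO) at 24 h and 25.6% and 17.4% at 72 h; DMSO had 19 higher and 5 lower at 24 h and 4 lower at 72 h. Above 120000 the shares were 13.4% and 5.45% at 24 h and 10.4% and 5.11% at 72 h. Calls were then 181 and 46 (paclitaxel) and 68 higher (DMSO) at 24 h, and 56 and 27 (paclitaxel) and 9 and 29 (DMSO) at 72 h, and the paclitaxel 72 h median of the G2/M list was 0.93. Paclitaxel minus DMSO gave 44 and 20 at 24 h (list median 0.59) and 42 and 10 at 72 h (0.91). At 1.7 times each library's median the DMSO 72 h share was 14.8%, with 4 lower.

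Comparison cells and averages. Against 50000 to 70000 UMIs the list medians were 0.65 (paclitaxel 24 h), 0.95 (paclitaxel 72 h) and -0.026 (DMSO 72 h), calls were 39 and 24 in paclitaxel at 72 h, and paclitaxel minus DMSO gave 14 and 14 at 24 h, with list medians of 0.40 (24 h) and 1.03 (72 h). With mean CPM per cell DMSO at 72 h had 6 higher and the 24 h difference 14 higher. Medians per cell at 40000 UMIs move in whole UMIs and gave 290 and 71 in paclitaxel and 169 and 93 in DMSO at 24 h, and 221 and 66 in paclitaxel and 123 and 91 in DMSO at 72 h. The list medians were then 1.00, 0.00, 0.58 and 1.00 in that order, the differences 246 and 126 at 24 h (median 0.58) and 189 and 97 at 72 h (0.00), and AC005152.3 turned to 1.00 in paclitaxel at 72 h.

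Scaling and minimums. Without ribosomal and mitochondrial totals paclitaxel at 24 h had 49 and 41, DMSO at 72 h 5 higher, and the 24 h difference 10 higher. TMM gave 40 and 8 in paclitaxel and 6 higher in DMSO at 72 h. At 10 CPM calls were 191 and 107 (paclitaxel) and 66 and 63 (DMSO) at 24 h, 104 and 106 (paclitaxel) and 8 and 40 (DMSO) at 72 h, and the differences 66 and 54 at 24 h and 108 and 44 at 72 h. Without a minimum they were 362 and 729 (paclitaxel) and 272 and 439 (DMSO) at 24 h, 299 and 656 (paclitaxel) and 152 and 348 (DMSO) at 72 h, and the differences 270 and 473 at 24 h and 361 and 411 at 72 h. DMSO at 72 h had 5 higher without cells marked by Scrublet, 5 under 10% mitochondrial UMIs, and 4 without cells under 2%, an alternative chosen after seeing the data.

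Phases. Within G1 calls paclitaxel had 51 higher at 24 h and 25 lower at 72 h (list median 0.54), and DMSO at 72 h 20 and 26 (0.59). Within S calls the list medians were 0.024 (paclitaxel) and 0.062 (DMSO) at 24 h, with 67 and 28 calls in DMSO. There CDK1 (-0.12), ARL6IP1 (-0.058), ARID5B (0.045), NEAT1 (0.0059), TPX2 (-0.014) and HSPA8 (-0.0085) reversed in paclitaxel at 24 h, and AURKA (-0.21) in DMSO at 24 h. Within G2/M calls paclitaxel at 24 h had 49 lower, paclitaxel at 72 h 151 and 178 and DMSO at 72 h 42 lower, with list medians of 0.068 (paclitaxel 24 h), 0.013 (DMSO 24 h), 0.19 (paclitaxel 72 h) and -0.56 (DMSO 72 h). There KRT15 (0.049), RGCC (0.18), TXNIP (0.020), TPX2 (-0.024) and TOP2A (-0.15) reversed in paclitaxel at 24 h, IGFBP6 (0.50) and AC005152.3 (0.30) in paclitaxel at 72 h, and CTGF (0.60) in DMSO at 72 h. G1 calls in DMSO at 24 h and S calls at 72 h held under 20 RNA-rich cells and gave no value. Scored alone, the paclitaxel 72 h library had 41.4% G2/M calls among RNA-rich cells; unthinned UMIs gave 76.0% in DMSO at 24 h, as did another seed. Unthinned, RNA-rich cells had 2387.5 (paclitaxel) and 1961 (DMSO) more genes than mid-range cells at 24 h, and 2600.5 and 2337 at 72 h, against 125.5 and -51.5 at 24 h and 168 and 100.5 at 72 h at equal depth.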

Other observations

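Other lists of growth, stress and structure genes had few calls between RNA-rich and mid-range cells. Actin cytoskeleton genes were called higher in 3 of 25 cases in paclitaxel and 1 of 26 in DMSO at 24 h, and in 1 of 25 and 0 of 24 at 72 h. Stress response genes (unfolded protein and integrated) were called higher in 3 of 21 cases in paclitaxel and 0 of 20 in DMSO at 24 h, and in 1 of 21 and 1 of 18 at 72 h. Immediate early genes, which respond within minutes to growth signals, had 1 of 13 called higher and 2 lower in paclitaxel at 24 h and no call in the other libraries. Microtubule-associated proteins had 1 of 20 called higher and 1 lower in paclitaxel at 24 h, 1 of 21 higher in paclitaxel at 72 h and 1 of 19 higher in DMSO at 72 h. Basal genes had 2 of 16 called lower in paclitaxel and 1 of 15 higher in DMSO at 24 h, and 1 of 16 lower in each library at 72 h. Luminal genes, beside the 3 of 12 in DMSO at 24 h, had 1 of 14 called lower in paclitaxel at 24 h.

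Nucleolar and ribosome biogenesis genes, translation factors, splicing factors and the apoptosis-promoting and apoptosis-opposing genes had no call in any library. Cholesterol biosynthesis genes had 1 of 18 called lower in paclitaxel at 72 h, epithelial junction genes 1 of 19 higher in DMSO at 24 h, and mesenchymal and matrix genes 1 of 9 lower in paclitaxel at 24 h, with no other call. MHC class I genes were called higher in 3 of 9 cases in DMSO at 24 h and in no other library. NF-kB and inflammatory genes were called higher in 3 of 13 (paclitaxel) and 3 of 12 (DMSO) cases at 24 h, and in 1 of 17 (paclitaxel, with 1 lower) and 1 of 11 (DMSO) at 72 h.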
